A study of Mus musculus with 12 samples.

Results

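The comparison described here set natural killer (NK) cells from lymph nodes that carried a diffuse large B cell lymphoma against NK cells from nodes without tumor. In the first group, the hematogenous model, the lymphoma spread through the blood. The second group came from tumor-free C57BL/6J mice. The libraries were chosen by their titles: 8 of the 12 in the series entered the comparison, 4 of each group. All genes that passed a low-count filter were tested, which left 16016 of the 56748 gene IDs. The other 4 libraries, NK cells from nodes of a model in which the lymphoma spreads through the lymphatics, entered the fit to estimate the spread and are set against the hematogenous libraries. Both models were labelled as diffuse large B cell lymphoma, and no gene deletion, drug or antibody was labelled for any group. The lymphoma line, the strain of the tumor-bearing mice, their age, the time of collection and the antibodies of the sort were not given in the sources used here. Nothing in the labels says whether the 4 libraries of a group came from separate mice, so p-values measure the spread between these libraries, which may be technical.

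NK cells are innate lymphocytes that kill tumor and virus-infected cells with perforin and granzymes and that secrete cytokines such as interferon gamma. Their activity is set by activating and inhibitory receptors, many of which signal through ITAM adaptor proteins, and by cytokines such as IL-2, IL-7, IL-12, IL-15 and IL-18. In lymph nodes they include less mature cells that carry the IL-7 receptor, and maturation is driven by the transcription factors T-bet and Eomes.

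RNA with poly(A) tails was read as single-end stranded reads of 120 bases, and reads were counted per gene. Gene counts per library ranged from 6654215 to 23674960 in the tumor-free group and from 10087837 to 19625766 in the hematogenous group. A smaller share of reads fell on genes in the hematogenous libraries, 62.0% ± 4.57 against 68.3% ± 2.32 (SD, n = 4 each; exact permutation test, two-sided, p = 0.0286, adjusted p = 0.105 over 11 library measures). Reads outside annotated features made up 21.2% ± 3.00 of hematogenous and 14.8% ± 4.30 of tumor-free reads (exact permutation p = 0.0857). The median exon length of the gene behind a count was 5573 ± 216 bases against 4870 ± 217, and the groups did not overlap. On the first principal component the deepest tumor-free library, replicate 3, stood apart from the other tumor-free libraries at -3.1, against -85.3 to -50.6 for them and 35.2 to 64.5 for the hematogenous libraries. The part of these library differences in the gene results was not tested beyond the values given beside them. The label of NK cells was checked on 15 NK genes: all were counted in each group, and their summed level was 15742 to 17645 CPM (counts scaled to library size with TMM factors) in tumor-free and 10554 to 12498 CPM in hematogenous libraries.

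Among the 16016 genes, 2625 (16.4%) were called at an adjusted p under 0.05 with edgeR's quasi-likelihood test, 1525 higher (9.52%) and 1100 lower (6.87%) in the hematogenous group. The median log2 fold change of all tested genes was 0.08, and 893 called genes (5.58% of those tested) differed at least 2-fold, 630 higher and 263 lower. Of the genes called higher, 158 had 0 counts in the tumor-free group, so the fitted size of their change has no meaning beyond its direction. The CPM ranges of both groups did not overlap in 3120 genes (19.5%), 1837 higher (11.5%) and 1283 lower (8.01%), and 2170 of these were also called. Of the called genes, 58.1% were higher. That share was 50.2% with a stricter low-count filter and 52.1% with all libraries thinned to equal depth. Longer genes were called higher more often: in 5 groups of genes from the shortest to the longest exon length, 3.7%, 5.65%, 7.47%, 10.1% and 20.9% of tested genes were called higher, and 7.97%, 10.2%, 8.27%, 5.53% and 2.94% lower. With the trend over gene length removed, 947 genes were called higher and 1451 lower, and 39.5% of calls were higher. The direction of a single gene is therefore given below with that setting wherever it ended the call.

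**Figure D1:**
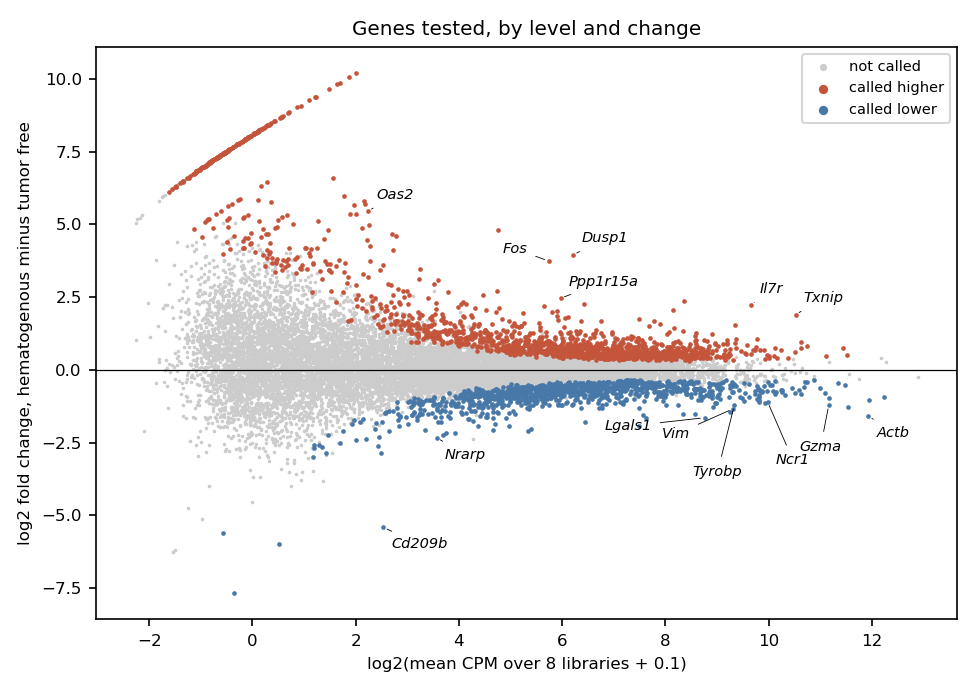
Log2 fold change (hematogenous minus tumor free) of each of the 16016 tested genes against its mean level over the 8 libraries, log2(CPM + 0.1). Red points are the 1525 genes called higher and blue points the 1100 called lower; the narrow diagonal band of red points at the upper left holds genes with 0 counts in the tumor-free group, whose fitted fold change is no bound. The called genes named on the plot include Il7r, at 2.23, and Actb, at -1.58.

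**Figure D2:**
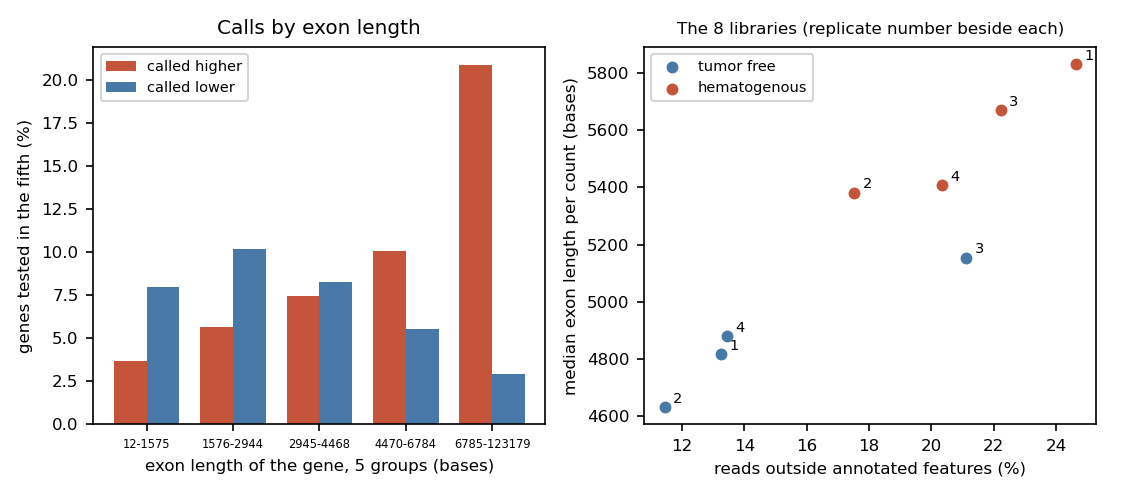
Left, the percent of tested genes called higher (red bars) or lower (blue bars) in each of 5 groups by exon length in bases, rising from 3.7% to 20.9% for higher calls. Right, each of the 8 libraries by the percent of its reads outside annotated features and the median exon length of the gene behind a count in bases, with its replicate number; tumor-free replicate 3 lies closest to the hematogenous libraries.

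The gene for the IL-7 receptor alpha chain, Il7r (ENSMUSG00000003882), had the smallest adjusted p of the genes called in the cytokine lists. Its level was 303, 257, 289.6 and 284 CPM in the 4 tumor-free libraries and 758, 1419, 1819 and 1321 CPM in the 4 hematogenous libraries, so the groups were well apart. The log2 fold change was 2.23 (SE 0.22, adjusted p = 1.35e-05). Of 23 genes of common gamma chain cytokine signalling, 3 were called higher (13%, against 9.52% of all tested genes) and 0 lower: Il7r, Il2ra, the IL-2 receptor alpha chain (12.9 ± 2.5 CPM in tumor-free and 31.8 ± 13.4 CPM in hematogenous libraries, log2 fold change 1.30, adjusted p = 0.00454), and Socs3, a feedback inhibitor of cytokine signalling (0.97, adjusted p = 0.0174). The call of Socs3 was lost with limma voom (adjusted p = 0.169), without hematogenous replicate 4 (0.0924) and without tumor-free replicate 4 (0.0506). Il2rb, the beta chain that NK cells use for IL-2 and IL-15, did not pass the test (3147 ± 92.6 against 2846 ± 509 CPM; log2 fold change -0.14, adjusted p = 0.507).

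Of 21 receptor and signalling genes of the IL-12, IL-18 and gp130 families, 8 were called higher (38.1%, against 9.52% of all tested genes) and 0 lower. The other 13 were not called, 6 members lay below 0, and the median log2 fold change was 0.55. The chains of the IL-18 receptor, through which IL-18 drives interferon gamma production, both rose. Il18r1 stood at 838, 821, 867 and 778 CPM in tumor-free and 1673, 1125, 1505 and 1260.4 CPM in hematogenous libraries, with no overlap (log2 fold change 0.75, SE 0.13, adjusted p = 0.00102). Il18rap went from 1175 ± 137 to 2005 ± 289 CPM (log2 fold change 0.77, adjusted p = 0.000552). Il6st, which encodes the shared receptor chain gp130, and Il10ra, the ligand-binding chain of the IL-10 receptor, rose by 1.10 and 0.63 on the log2 scale (adjusted p = 0.00382 and 0.0026).

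Genes of less mature and stem-like NK cells did not move as a block. Of 24, 8 were called higher (33.3%, against 9.52% of all tested genes) and 6 lower (25%, against 6.87%), with a median of 0.19. Beside Il7r, the called genes of smallest p included Slamf6, a SLAM family receptor, Ikzf2, which encodes the transcription factor Helios, and Satb1, a chromatin organizer. Slamf6 was counted at 39.1, 51.9, 42.4 and 40.4 CPM in tumor-free and 106, 109, 120.4 and 105 CPM in hematogenous libraries, a narrow spread in each (log2 fold change 1.34, SE 0.17, adjusted p = 7.25e-05). Ikzf2 rose from 62.9 ± 8.95 to 153 ± 16.7 CPM (log2 fold change 1.28, adjusted p = 0.000166). Satb1 rose by 0.71 on the log2 scale (adjusted p = 0.000418), a call lost with the length trend removed (adjusted p = 0.176). Tcf7, the gene of the transcription factor TCF-1, did not pass the test (log2 fold change 0.34, adjusted p = 0.072), but was called with DESeq2 (adjusted p = 0.0366) and without tumor-free replicate 3 (0.0313). Cd27 and Itgam, which are used to stage NK maturation, had log2 fold changes of -0.06 and 0.13 and adjusted p of 0.85 and 0.597.

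**Figure D3:**
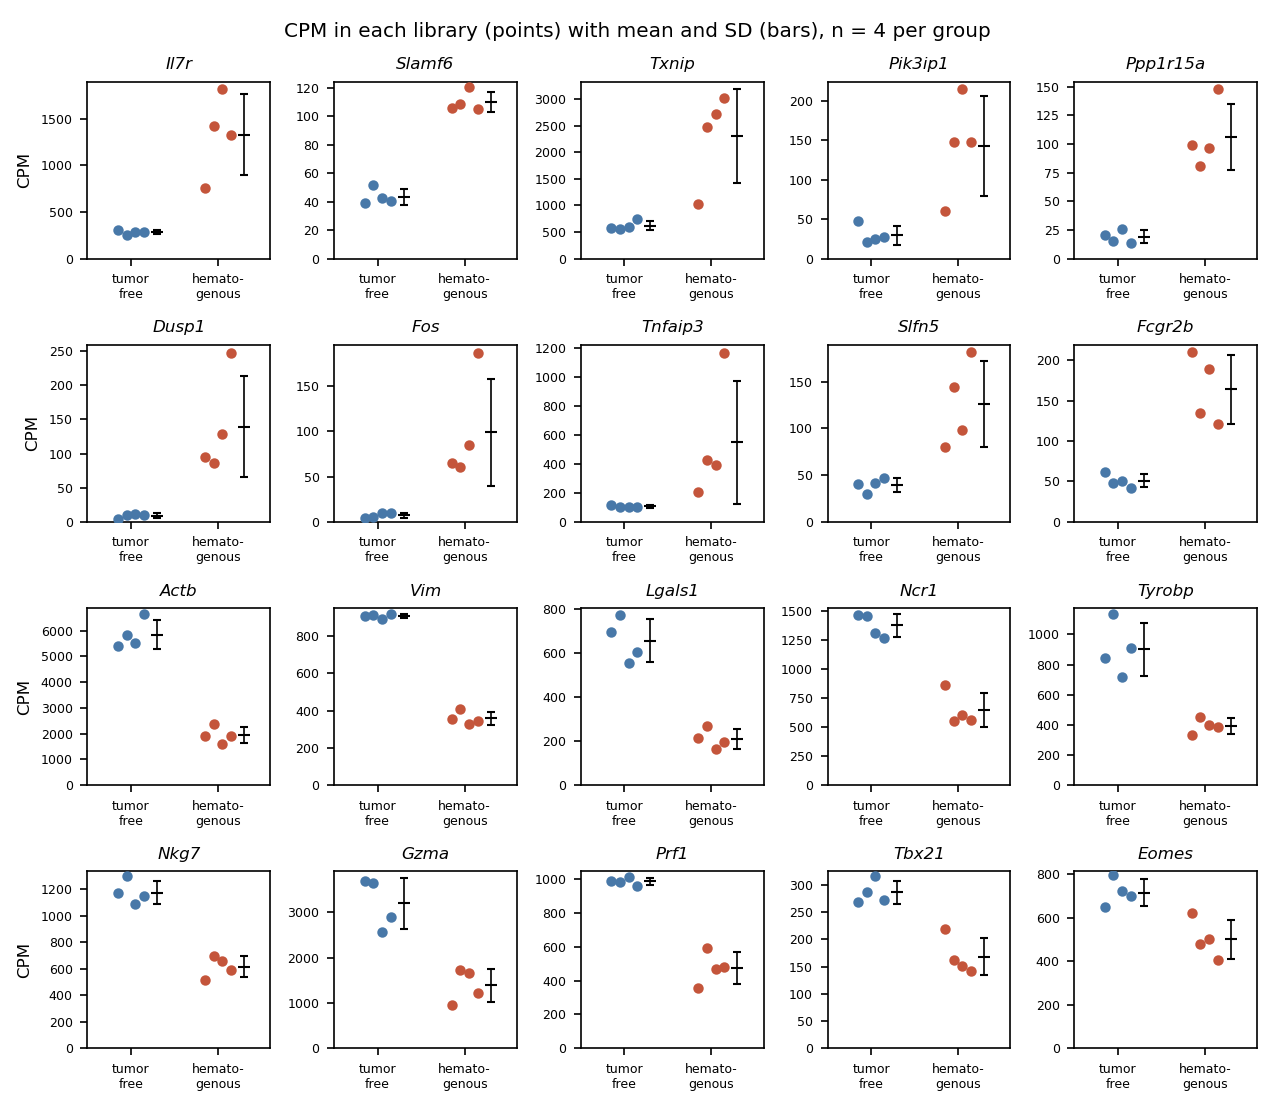
CPM of 20 named genes in each library (points, tumor free blue, hematogenous red) with the mean and SD of 4 libraries beside them; each panel has its own axis from 0. All 4 hematogenous libraries lie above the tumor-free ones for the 10 genes from Il7r to Fcgr2b, and below them for the 10 from Actb to Eomes.

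Mature NK genes were more often lower: 12 of 23 fell (52.2%, against 6.87% of all tested genes), 1 rose, and the median was -0.41. The lists share members, so their counts are not independent. Gzma is also in the granule list and Lgals1 in the S100, annexin and galectin list, where their values are given. The number of mature NK genes called higher was 4 without hematogenous replicate 1 and 2 without tumor-free replicate 1. Tbx21, which encodes T-bet, was at 269, 287, 316 and 273 CPM in tumor-free and 218, 162, 152 and 142 CPM in hematogenous libraries. The log2 fold change was -0.77 (SE 0.15, adjusted p = 0.00173), and hematogenous replicate 1 was the highest of its group. Eomes fell by a smaller amount, from 717 ± 60 to 502 ± 90.1 CPM (log2 fold change -0.51, adjusted p = 0.00857). Of 21 transcription factors of NK cells and other innate lymphoid cells, 4 were called higher (19%) and 5 lower (23.8%). The shares of all tested genes were 9.52% and 6.87%. With the length trend removed 1 of the factors was higher. Without tumor-free replicate 1, 2 of these factors were called higher, and without tumor-free replicate 2, 3 were called lower. Id2, a repressor of E proteins required for innate lymphoid cells, and Gata3 were among the lower ones, at log2 fold changes of -0.67 and -0.52 (adjusted p = 0.0125 and 0.0142); without tumor-free replicate 2 Id2 had an adjusted p of 0.0556. Klrg1, a receptor of terminally mature cells, was lower by a log2 fold change of -0.86 (adjusted p = 0.0176). The groups overlapped for it, and the call was lost without tumor-free replicate 2 (0.0735), hematogenous replicate 1 (0.053) or hematogenous replicate 4 (0.0597).

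Among 17 activating NK receptors 8 fell (47.1%, against 6.87% of all tested genes) and 0 rose, with a median of -0.41. Ncr1, which encodes the receptor NKp46 that defines NK cells in mice, was at 1463, 1453, 1306 and 1265 CPM in tumor-free and 863, 552, 604 and 559.6 CPM in hematogenous libraries, less in every hematogenous library (log2 fold change -1.09, SE 0.14, adjusted p = 7.89e-05). Klrb1a, Slamf7 and Cd160 fell by log2 fold changes between -0.77 and -0.66. Klrb1c, which encodes NK1.1, fell by less (log2 fold change -0.52, adjusted p = 0.0139), and without tumor-free replicate 2 its adjusted p was 0.0537. Klrk1, the gene of NKG2D, was at 1815, 1552, 1508 and 1469 CPM in tumor-free and 1459, 1462, 1758 and 1417 CPM in hematogenous libraries; these overlapped (log2 fold change -0.06, adjusted p = 0.791). The number of lower receptors was 4 without tumor-free replicate 2 and 5 without tumor-free replicate 1, hematogenous replicate 3 or hematogenous replicate 4.

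Inhibitory receptors went both ways, with 3 of 24 higher (12.5%, against 9.52% of all tested genes) and 4 lower (16.7%, against 6.87%). The number lower was 2 without tumor-free replicate 2, hematogenous replicate 1 or hematogenous replicate 4. Tigit, a checkpoint receptor for nectin family ligands, was at 31.7, 36.1, 23.1 and 30.2 CPM in tumor-free libraries and 29.8, 128, 108 and 143 CPM in hematogenous libraries; replicate 1 of the latter stayed within the tumor-free range (log2 fold change 1.77, SE 0.33, adjusted p = 0.00239). Ctla4 had 0 counts in the 4 tumor-free libraries and 0, 2.17, 3.87 and 6.28 CPM in the hematogenous ones, at least 47-fold higher against a floor of 3 counts over the tumor-free group. Its adjusted p was 0.0124, and 0.0762 with limma voom. Klra3 and Klre1, lectin-like receptors of the NK gene complex, fell by log2 fold changes of -0.88 and -0.47 (adjusted p = 0.00298 and 0.00746). Genes of the Klra family are near-identical copies, so the counts of single members are uncertain. Pdcd1, the checkpoint receptor PD-1, was at 0.855 ± 1.02 CPM in tumor-free and 2.98 ± 1.71 CPM in hematogenous libraries and did not pass the test (adjusted p = 0.364). Fcgr2b, the inhibitory Fc receptor, was no member of that list but was among the 10 higher genes of smallest p: 61.7, 48.2, 50.9 and 42 CPM in tumor-free against 211, 134, 188 and 122 CPM in hematogenous libraries (log2 fold change 1.69, adjusted p = 3.5e-05).

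Of 23 genes of ITAM adaptors and proximal signalling, 10 fell (43.5%, against 6.87% of all tested genes) and 5 rose (21.7%, against 9.52%). The other 8 were not called. The adaptor gene Tyrobp, which encodes DAP12, was at 841, 1135, 719 and 908 CPM in tumor-free and 331, 453, 397 and 387 CPM in hematogenous libraries (log2 fold change -1.20, SE 0.14, adjusted p = 5.59e-05). Fcer1g, the Fc receptor gamma chain that pairs with NKp46 and CD16, went from 552 ± 77.3 to 271 ± 33.4 CPM (log2 fold change -1.03, adjusted p = 6.37e-05). The groups did not overlap for either gene. The phosphatase gene Ptpn6 (SHP-1), which inhibitory receptors recruit, also fell, by -1.07 on the log2 scale (adjusted p = 0.00043). Plcg1, a phospholipase downstream of ITAM receptors, moved the other way, from 7.48, 15.2, 28.4 and 19.7 CPM in tumor-free to 90.1, 93.9, 74.9 and 72.8 CPM in hematogenous libraries (log2 fold change 2.21, adjusted p = 0.000134). The number of the list's genes called higher was 2 or 3 without tumor-free replicate 1 or 2, or without hematogenous replicate 2, 3 or 4, and 2 with the length trend removed.

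Of 22 genes of the cytotoxic granule, 8 were called lower (36.4%, against 6.87% of all tested genes) and 2 higher (9.09%, against 9.52%). The other 12 were not called, and the median was -0.49. The number higher was 4 without hematogenous replicate 1 and 1 without hematogenous replicate 3 or tumor-free replicate 1 or 4. Prf1, which encodes perforin, was at 992, 985, 1014 and 963 CPM in tumor-free libraries and 358, 593, 469.7 and 478 CPM in hematogenous libraries (log2 fold change -1.06, SE 0.17, adjusted p = 0.000468). Gzma, granzyme A, stood at 3691, 3648, 2553 and 2899 CPM against 963, 1719, 1669 and 1217 CPM (log2 fold change -1.20, SE 0.18, adjusted p = 0.000218). Every hematogenous library was below every tumor-free library for both. Nkg7, a granule membrane protein that supports degranulation, and Ctsd, the lysosomal protease cathepsin D, fell by log2 fold changes of -0.93 and -0.76 (adjusted p = 0.00012 and 0.000185). Gzmb, granzyme B, varied within the hematogenous group (133, 502, 274 and 441 CPM, against 678, 394, 392 and 406 CPM in tumor-free libraries) and did not pass the test (adjusted p = 0.537). Lyst, a regulator of lysosome size and granule exocytosis, rose from 156 ± 43.1 to 382 ± 50.1 CPM (log2 fold change 1.29, adjusted p = 0.000132).

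Of 15 effector cytokine and chemokine genes, 5 fell (33.3%, against 6.87% of all tested genes) and 1 rose (6.67%, against 9.52%). The number that fell was 3 without tumor-free replicate 2 or hematogenous replicate 1. The gene that rose was Cxcl10, a chemokine induced by interferon gamma (log2 fold change 2.96, adjusted p = 0.0434). Its call was lost in 6 of the 8 fits that left out 1 library (adjusted p up to 0.0988), and also with DESeq2 (0.0576), limma voom (0.17), no filter (0.123) and the compared groups alone (0.0522). Xcl1, a chemokine that draws cross-presenting dendritic cells, was at 288, 391, 227 and 228 CPM in tumor-free and 85, 99.2, 66.3 and 138 CPM in hematogenous libraries, with no overlap (log2 fold change -1.54, adjusted p = 0.00704). Tgfb1 and the cytokine gene Mif were also lower (-0.70 and -1.61, adjusted p = 0.00286 and 0.00221). Ifng did not pass the test, at 56.6, 91.3, 58.4 and 52.8 CPM in tumor-free and 63.3, 49.1, 46.9 and 80 CPM in hematogenous libraries (log2 fold change -0.11, adjusted p = 0.795). Of 28 migration and adhesion genes 10 fell (35.7%, against 6.87% of all tested genes) and 2 rose (7.14%, against 9.52%). Ccr2, the receptor for CCL2, fell from 1209 ± 108 to 590.3 ± 55 CPM (log2 fold change -1.03, adjusted p = 6.37e-05). Itgb7, an integrin of gut homing, and Selplg, the P-selectin ligand, fell by log2 fold changes of -0.78 and -0.83.

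Actin and motility genes showed the highest share of lower calls among the lists: 28 of 31 fell and 0 rose, against 6.87% of all tested genes called lower, and the median was -0.73. Actb, cytoplasmic beta-actin, was at 5401, 5837, 5520.5 and 6635 CPM in the tumor-free libraries and 1909, 2387, 1610.0 and 1913 CPM in the hematogenous ones. The log2 fold change was -1.58 (SE 0.16, adjusted p = 1.28e-05), and the groups were far apart. Actg1, gamma-actin, Cfl1, the actin-severing protein cofilin, and Cap1, a cofilin partner, fell by log2 fold changes of -1.13, -0.98 and -0.87 (adjusted p = 7.89e-05, 8e-05 and 6.77e-05). Under the alternatives run, between 26 and 28 of the 31 were called lower.

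The S100, annexin and galectin list holds calcium- and membrane-binding proteins typical of effector lymphocytes. Of its 18 genes 14 fell (77.8%, against 6.87% of all tested genes) and 0 rose, with a median of -0.85. Vim (ENSMUSG00000026728), the intermediate filament protein vimentin, had the smallest adjusted p of all falls: 907, 912, 890.1 and 921 CPM in tumor-free and 356, 407, 329.7 and 343 CPM in hematogenous libraries (log2 fold change -1.34, SE 0.11, adjusted p = 1.15e-06). Its spread within each group was small. Lgals1, galectin-1, was at 693, 772, 552 and 604 CPM against 213, 269, 162 and 195 CPM (log2 fold change -1.64, adjusted p = 8.05e-06). Anxa2, S100a6, Crip1 and Emp3 fell by log2 fold changes between -1.15 and -0.85. Efhd2, a calcium-binding regulator of actin bundling outside the lists, fell as well, from 684 ± 59 to 282 ± 60.7 CPM (log2 fold change -1.28, adjusted p = 2.6e-05).

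**Figure D4:**
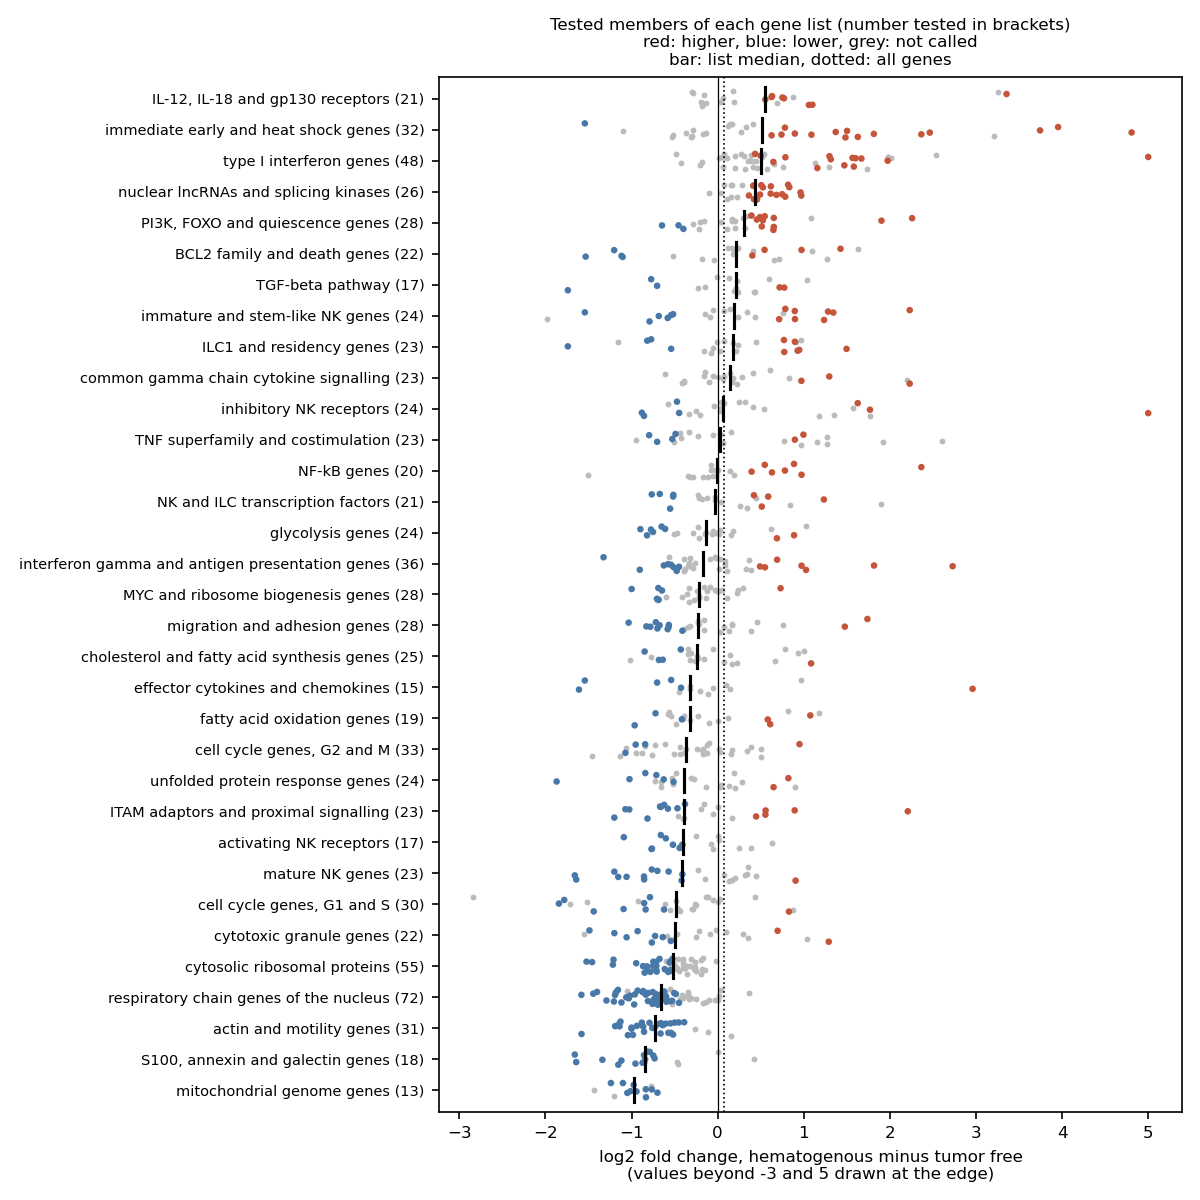
Log2 fold change (hematogenous minus tumor free) of each tested member of the 33 lists of cell states, ordered by list median (black bar). Red points were called higher, blue lower and grey not called; the dotted line is the median of all genes tested, 0.08, and values beyond -3 and 5 sit at the edge. The lists at the bottom (mitochondrial genome, S100, actin, respiratory chain and ribosomal genes) hold no red point.

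Genes for mitochondrial energy production were lower in the same libraries. Of 72 respiratory chain genes of the nucleus, 44 fell (61.1%, against 6.87% of all tested genes) and 0 rose, with a median of -0.65. Ndufa2, a subunit of complex I, was at 60, 66.6, 50 and 50.7 CPM in tumor-free and 22.3, 28, 16.2 and 26.2 CPM in hematogenous libraries (log2 fold change -1.29, SE 0.19, adjusted p = 0.000246). The ATP synthase subunit genes Atp5d, Atp5e and Atp5o fell by -1.18, -1.20 and -0.97 as log2 fold changes. Of 13 genes of the mitochondrial genome, 10 fell (76.9%) and 0 rose (median -0.97), and 5 fell with limma voom. Their share of gene counts was 1.01% ± 0.197 in hematogenous and 1.86% ± 0.502 in tumor-free libraries (SD, n = 4 each; exact permutation p = 0.0571, adjusted 0.105); mt-Nd4, a complex I subunit, fell from 1220.1 ± 349 to 569 ± 92.2 CPM (log2 fold change -1.10, adjusted p = 0.000755). Ucp2, a carrier of the inner mitochondrial membrane, was among the 10 lower genes of smallest p (log2 fold change -0.89, adjusted p = 6.37e-05).

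Of 55 cytosolic ribosomal protein genes, 24 fell (43.6%, against 6.87% of all tested genes) and 0 rose, with a median of -0.52. Rps26 was at 322, 431, 296 and 404 CPM in tumor-free and 119.7, 184, 124 and 197 CPM in hematogenous libraries (log2 fold change -1.22, adjusted p = 0.000132), and Rplp1 fell by -1.46 on the log2 scale (adjusted p = 0.000626). The number lower depended on the libraries and the tool: 11 with limma voom, 39 with no filter on low counts, 13 without tumor-free replicate 2, 15 without hematogenous replicate 1 and 12 without hematogenous replicate 3. Ribosomal protein genes have many processed copies, so the counts of single members are uncertain. The median exon length of the tested members was 784 bases for the mitochondrial genome list, 1697 for the respiratory chain list and 2015 for the ribosomal list, all in the shorter part of the genes tested. With the length trend removed, 11, 43 and 26 of their members were called lower, in the same order.

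Type I interferon genes rose in part: 14 of 48 were called higher (29.2%, against 9.52% of all tested genes) and 0 lower. The other 34 were not called. The log2 fold change lay above 0 for 44 members and below 0 for 4, and the median was 0.50. Without hematogenous replicate 4, 2 were called lower. Slfn5 and Slfn1 are Schlafen genes, induced by interferon in lymphocytes. Slfn5 was at 40.1, 29.6, 41.9 and 46.8 CPM in tumor-free libraries and 80.1, 144, 98.5 and 182 CPM in hematogenous libraries, with no overlap (log2 fold change 1.67, SE 0.20, adjusted p = 6.43e-05). Slfn1 went from 15.4 ± 3.84 to 60 ± 28 CPM (log2 fold change 1.97, adjusted p = 0.000132). Oas2, a sensor of double-stranded RNA, was nearly uncounted in tumor-free libraries (0, 0.148, 0.426 and 0 CPM) and low in hematogenous libraries (11.3, 6.71, 2.92 and 15.4 CPM; log2 fold change 5.45, adjusted p = 0.000139). Ifi213, a member of the HIN-200 family, and Usp18, which limits interferon receptor signalling, rose by 1.31 and 1.47 on the log2 scale (adjusted p = 0.00138 and 0.00156), and for Usp18 the groups overlapped. Apobec3, a restriction factor of retroviruses outside the list, was among the 10 higher genes of smallest p (log2 fold change 0.93, adjusted p = 6.37e-05).

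The promoters of these genes were searched for the core of the interferon-stimulated response element, the letters GAAANNGAAA on either strand, where N is any base. Promoters are the 250 bases before and 50 bases after the gene start, from RefSeq on build GRCm38.p6, and were found for 36 of the 48 tested list genes. The letters stood in 21 of these 36 promoters (58.3%), in 5 of the 10 promoters of called genes (50%) and in 392 of 10170 promoters of all tested genes (3.85%). A match is a run of letters, not a measured binding site. The promoters of the called genes Slfn5 (chr11:82951852-82952151, plus strand, with the match starting 155 bases before the gene start) and Ifi213 (chr1:173599223-173599522, minus strand, 73 bases before the start) show its place, in capitals, 5′ to 3′.
Slfn5: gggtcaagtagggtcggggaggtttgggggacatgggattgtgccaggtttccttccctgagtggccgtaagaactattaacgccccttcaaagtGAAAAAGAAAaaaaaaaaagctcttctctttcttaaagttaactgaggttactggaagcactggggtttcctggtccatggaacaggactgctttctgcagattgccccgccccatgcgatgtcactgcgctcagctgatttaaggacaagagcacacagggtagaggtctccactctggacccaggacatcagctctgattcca
Ifi213: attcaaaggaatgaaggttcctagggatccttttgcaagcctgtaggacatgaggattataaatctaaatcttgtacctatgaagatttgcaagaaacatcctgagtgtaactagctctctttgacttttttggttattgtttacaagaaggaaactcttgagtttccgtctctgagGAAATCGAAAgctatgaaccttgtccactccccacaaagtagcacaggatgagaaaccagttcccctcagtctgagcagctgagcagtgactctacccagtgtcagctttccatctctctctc

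Genes of the interferon gamma response and of antigen presentation went both ways. Of 36, 7 rose (19.4%, against 9.52% of all tested genes) and 8 fell (22.2%, against 6.87%). The median was -0.17, and 4 fell without hematogenous replicate 3. Gbp9, a guanylate-binding protein, was at 132, 112, 136 and 115 CPM in tumor-free and 235, 236, 230.2 and 308 CPM in hematogenous libraries (log2 fold change 1.03, adjusted p = 6.77e-05), and H2-Q4, a nonclassical MHC class I gene, rose by 0.69 (adjusted p = 0.00186). H2-Q genes are near-identical copies, so this value is uncertain. Psme1, an activator subunit of the proteasome, and Psmb10, a subunit of the immunoproteasome, fell by log2 fold changes of -0.90 and -1.33 (adjusted p = 0.000379 and 0.000468).

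Immediate early genes, which are switched on within minutes of stimulation or stress and also during tissue handling, were higher in part. Of 32 genes of the immediate early and heat shock list 15 rose (46.9%, against 9.52% of all tested genes). In the same list 1 fell (3.12%, against 6.87%) and 16 were not called. The log2 fold change lay below 0 for 10 members, and the median was 0.52. Ppp1r15a (ENSMUSG00000040435), which encodes GADD34, a phosphatase subunit that reverses the arrest of translation under stress, had the smallest adjusted p of all rises. It was at 20.3, 15.5, 26.2 and 13.5 CPM in tumor-free and 99, 81.1, 96.6 and 148 CPM in hematogenous libraries (log2 fold change 2.46, SE 0.23, adjusted p = 7.7e-06). Dusp1, a phosphatase that turns off MAP kinases, was at 3.74, 10.4, 11.4 and 9.93 CPM against 95.3, 85.8, 128 and 247 CPM, highest in hematogenous replicate 4 (log2 fold change 3.95, adjusted p = 0.000109). Fos, a subunit of the transcription factor AP-1, was at 4.33, 5.03, 9.37 and 10.2 CPM in tumor-free and 65.1, 60.3, 84.8 and 187 CPM in hematogenous libraries. No hematogenous library overlapped the tumor-free range for these 3 genes (Fos: log2 fold change 3.74, adjusted p = 0.000148). The AP-1 genes Fosb and Jun rose by 4.81 and 1.81 on the log2 scale (adjusted p = 0.0101 and 0.000988). With limma voom and library weights, 7 genes of the list were called higher, and Fos and Fosb were not (adjusted p = 0.0602 and 0.398). Without hematogenous replicate 4, 4 genes were called lower, and 2 without tumor-free replicate 1.

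The promoters of this list were searched for the cyclic AMP response element, TGACGTCA, which reads the same on both strands. It stood in 3 of 26 promoters (11.5%), in 2 of the 14 of genes called higher (14.3%) and in 356 of 10170 promoters of all tested genes (3.5%). The called genes that hold it are Ppp1r15a (chr7:45526219-45526518, minus strand, the match starting 12 bases before the gene start) and Dusp1 (chr17:26508423-26508722, minus strand, 143 bases before the start), shown because they are among the clearest rises, with the match in capitals, 5′ to 3′, on build GRCm38.p6 from RefSeq.
Ppp1r15a: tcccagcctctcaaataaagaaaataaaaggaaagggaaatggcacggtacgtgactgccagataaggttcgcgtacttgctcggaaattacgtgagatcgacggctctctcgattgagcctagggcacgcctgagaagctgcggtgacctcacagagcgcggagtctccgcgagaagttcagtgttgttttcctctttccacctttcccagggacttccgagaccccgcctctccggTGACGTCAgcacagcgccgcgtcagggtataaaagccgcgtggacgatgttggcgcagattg
Dusp1: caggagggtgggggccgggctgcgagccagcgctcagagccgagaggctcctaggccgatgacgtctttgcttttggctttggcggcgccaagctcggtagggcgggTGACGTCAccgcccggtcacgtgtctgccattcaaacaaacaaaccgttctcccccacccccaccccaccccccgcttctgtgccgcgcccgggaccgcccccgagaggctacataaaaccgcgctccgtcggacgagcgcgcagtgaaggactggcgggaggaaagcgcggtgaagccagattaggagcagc

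The median of 20 NF-kB genes was -0.01, and 4 rose with the length trend removed. In the main fit 7 rose (35%, against 9.52% of all tested genes) and 0 fell. Those that rose included negative regulators of the pathway and Ikbkb, the gene of a kinase that activates it. Ikbkb rose by 0.55 on the log2 scale (adjusted p = 0.00621), a call lost with the length trend removed (adjusted p = 0.689). Tnfaip3, which encodes the ubiquitin-editing enzyme A20, was at 119.6, 104, 101 and 103 CPM in tumor-free and 209, 427, 395 and 1171 CPM in hematogenous libraries, above the tumor-free range in each and highest in replicate 4 (log2 fold change 2.37, SE 0.47, adjusted p = 0.00652). Nfkbia, the inhibitor IkB alpha, and Birc3, an inhibitor of apoptosis protein, rose by 0.78 and 0.97 (adjusted p = 0.00578 and 0.0013).

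Genes of PI3K and FOXO signalling and of quiescence rose more often than they fell, with a median of 0.31. Of 28, 11 rose (39.3%, against 9.52% of all tested genes) and 3 fell (10.7%, against 6.87%). With the length trend removed 4 rose. Txnip, which binds thioredoxin and lowers glucose uptake, was at 580.0, 556, 595 and 748 CPM in tumor-free and 1031, 2479, 2723 and 3032 CPM in hematogenous libraries (log2 fold change 1.90, SE 0.23, adjusted p = 6.37e-05). Pik3ip1, an inhibitor of PI3K at the membrane, was at 47.5, 20.6, 24.4 and 26.8 CPM against 59.6, 148, 214 and 147 CPM (log2 fold change 2.26, adjusted p = 0.000688). In both genes hematogenous replicate 1 was the lowest of its group and still above the tumor-free libraries. Cdkn1b, the cell cycle inhibitor p27, rose by 0.65 and the kinase gene Akt1 fell, with a log2 fold change of -0.65 (adjusted p = 0.00311 and 0.00164). Zfp36l2, an RNA-binding protein that promotes mRNA decay and lymphocyte quiescence, rose from 334 ± 28.9 to 976 ± 223 CPM (log2 fold change 1.55, adjusted p = 1.66e-05). Mlxip, which encodes the glucose-sensing transcription factor MondoA, rose by 1.28 (adjusted p = 4.08e-05).

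Nuclear noncoding RNAs and splicing regulators also rose together: 17 of 26 were higher (65.4%, against 9.52% of all tested genes) and 0 lower. The median was 0.44. The number called higher was 11 without hematogenous replicate 1 or replicate 3, and 9 with the length trend removed. Srrm2, a large protein of nuclear speckles, was at 1285, 997, 1401 and 1222 CPM in tumor-free and 2536, 1985, 2017 and 2194 CPM in hematogenous libraries (log2 fold change 0.83, adjusted p = 0.00143). The splicing regulators Rsrp1, Srsf5 and Ccnl2 rose by 0.78, 0.68 and 0.62 on the log2 scale. Malat1 and Neat1, nuclear noncoding RNAs named here after their values were seen, rose by 0.53 and 0.97 (adjusted p = 0.022 and 0.0034). Neither was called with the length trend removed (adjusted p = 0.104 and 0.0881), and the call of Malat1 was also lost without tumor-free replicate 2 (0.0632), tumor-free replicate 4 (0.0505) or hematogenous replicate 1 (0.0646). Beside these counts stand the share of reads outside annotated features, for which the groups overlapped (exact permutation p = 0.0857), and the greater exon length behind a count in the hematogenous libraries, given above; their part was not tested beyond the setting without the length trend. Rbm33, an RNA-binding protein outside the list, was among the 10 higher genes of smallest p (log2 fold change 1.35, adjusted p = 1.36e-05).

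Genes of DNA replication and of the chaperones of the endoplasmic reticulum were lower in part. Of 30 G1 and S phase genes 8 fell (26.7%, against 6.87% of all tested genes) and 1 rose (3.33%, against 9.52%). The median was -0.48. The number that fell was 5 with limma voom, and also without tumor-free replicate 1, hematogenous replicate 1 or hematogenous replicate 3. Mcm3, a subunit of the replicative helicase, was at 102, 62.7, 87.7 and 82.6 CPM in tumor-free and 34.1, 56.4, 44.1 and 50.9 CPM in hematogenous libraries (log2 fold change -0.85, adjusted p = 0.0109), and Uhrf1, which maintains DNA methylation, fell by -1.44 as a log2 fold change (adjusted p = 0.0118). Of 33 G2 and M phase genes 3 fell (9.09%) and 1 rose (3.03%), shares near those of all tested genes. For Top2a and Stmn1, which were among the falls, the groups overlapped, and 1 gene fell without tumor-free replicate 2, tumor-free replicate 4 or hematogenous replicate 3. Mki67, the proliferation marker Ki-67, did not pass the test (83, 43.5, 52.8 and 61.6 CPM against 47.3, 62.1, 32 and 70.5 CPM; log2 fold change -0.18, adjusted p = 0.655). Of 24 genes of the unfolded protein response 6 fell (25%, against 6.87% of all tested genes) and 2 rose (8.33%, against 9.52%). The number that rose was 1 without hematogenous replicate 3 or 4. Sdf2l1, a cofactor of endoplasmic reticulum chaperones, fell from 48.3, 50, 33.7 and 30.4 CPM to 9.92, 12.2, 9.7 and 12.5 CPM (log2 fold change -1.87, adjusted p = 0.000349), and the chaperone genes Calr, Pdia4 and Hsp90b1 fell by -1.02, -0.84 and -0.63 as log2 fold changes. The number of unfolded protein response genes called lower was 10 in a fit of the compared groups alone and with a stricter filter, and 11 with no filter.

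Metabolic genes outside the respiratory chain gave mixed calls. Of 24 glycolysis genes 6 fell (25%, against 6.87% of all tested genes) and 2 rose (8.33%, against 9.52%). With the length trend removed 10 fell, and 1 rose without tumor-free replicate 1 or 3 or hematogenous replicate 1 or 4. Ldha, lactate dehydrogenase A, and Tpi1, triosephosphate isomerase, fell by log2 fold changes of -0.75 and -0.90, and Pdk1, a kinase that inhibits pyruvate dehydrogenase, rose by 0.89 (adjusted p = 0.0049, 0.0051 and 0.0016). Of 25 genes of cholesterol and fatty acid synthesis 4 fell (16%, against 6.87% of all tested genes) and 1 rose (4%, against 9.52%). The number that rose was 3 without tumor-free replicate 3. Scd2, a fatty acid desaturase, was at -0.85 and Fasn, fatty acid synthase, at -0.68 as log2 fold changes (adjusted p = 0.0004 and 0.00365). Cpt1a, the carnitine transferase that admits fatty acids to the mitochondria, was at 69.2, 68.1, 114 and 92.7 CPM in tumor-free and 169.9, 198, 161 and 197 CPM in hematogenous libraries, with no overlap (log2 fold change 1.08, adjusted p = 0.000178). It was 1 of 3 higher genes of 19 in fatty acid oxidation, where 3 were lower (15.8% each, against 9.52% and 6.87% of all tested genes). Without hematogenous replicate 3, 1 gene of that list was higher and 1 lower; 1 was lower without tumor-free replicate 3 or hematogenous replicate 1. The other higher genes, Acadm and Etfdh, had adjusted p of 0.0516 and 0.0601 without hematogenous replicate 3. The call of Etfdh was also lost with the length trend removed (adjusted p = 0.183). Of 28 genes of MYC and ribosome biogenesis 5 fell (17.9%, against 6.87% of all tested genes) and 1 rose (3.57%, against 9.52%). The number lower was between 0 and 3 when any 1 of 7 libraries was left out (every tumor-free replicate and hematogenous replicates 1, 2 and 3).

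The BCL2 family changed in both directions, 4 of 22 higher and 4 lower (18.2% each, against 9.52% and 6.87% of all tested genes). The number higher was 2 without hematogenous replicate 3. Bcl2l11, which encodes the death inducer BIM, was at 203, 146, 151 and 122 CPM in tumor-free and 202, 421, 507 and 539.5 CPM in hematogenous libraries, where replicate 1 lay at the top of the tumor-free range (log2 fold change 1.43, SE 0.22, adjusted p = 0.000402). Bcl2l1, which encodes the survival protein BCL-XL, and Bak1, a pore-forming death effector, both fell, with log2 fold changes of -1.20 and -1.12 (adjusted p = 0.000626 and 0.000972). In the TGF-beta list, 2 of 17 rose (11.8%, against 9.52% of all tested genes) and 3 fell (17.6%, against 6.87%): the ligand gene Tgfb3 was at 17.8, 34.2, 33.2 and 32.4 CPM against 15.4, 7.52, 5.33 and 7.16 CPM (log2 fold change -1.74, adjusted p = 0.00122) and Ski, a repressor of SMAD proteins, fell by -0.77 as a log2 fold change (adjusted p = 0.00128). Without tumor-free replicate 2, 4 genes of the TGF-beta list were called higher, and 1 without tumor-free replicate 4, hematogenous replicate 3 or hematogenous replicate 4. Of 23 genes of the TNF superfamily and costimulation 2 rose (8.7%, against 9.52% of all tested genes) and 4 fell (17.4%, against 6.87%). The number that fell was 2 without hematogenous replicate 3. Tnfsf8, the ligand of CD30, rose by 1.00 on the log2 scale and Tnfsf14, the ligand LIGHT, fell, with a log2 fold change of -0.70 (adjusted p = 0.00228 and 0.00632). Of 23 genes of type 1 innate lymphoid cells and tissue residency 6 rose (26.1%, against 9.52% of all tested genes) and 4 fell (17.4%, against 6.87%). The number that rose was 3 with limma voom. Nt5e, the ectoenzyme CD73 that makes adenosine, rose from 16.9 ± 3.81 to 47.9 ± 15.5 CPM (log2 fold change 1.50, adjusted p = 0.000644).

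Among the called genes of largest fold change with a mean of at least 5 CPM were Fosb, Dusp1 and Fos, described above, and several genes at low levels. Csf2rb, the shared beta chain of the receptors for IL-3, IL-5 and GM-CSF, was at 0, 0, 1.41 and 1.15 CPM in tumor-free and 9.45, 15.2, 11.3 and 13.4 CPM in hematogenous libraries (log2 fold change 4.12, adjusted p = 0.000967). The summed level of 11 mast cell and basophil markers, cells that also carry this receptor, was 150.5 to 194 CPM in tumor-free and 205 to 335 CPM in hematogenous libraries. Most of this sum was Kit, which is also in the list of type 2 and 3 innate lymphoid markers, and Cma1. Kit was at a mean of 93.5 CPM in tumor-free and 161 CPM in hematogenous libraries. Cma1 overlapped between the groups, at 51.8, 105, 65.5 and 88.7 against 81.9, 114, 91.9 and 68.7 CPM. Of the list's 4 tested members 1, Kit, was called higher (25%, against 9.52% of all tested genes). The number was 2 without tumor-free replicate 3 or hematogenous replicate 1. The call of Kit was lost with the length trend removed (adjusted p = 0.0656). Among the 11 markers 7, Ms4a2 and Mcpt8 among them, had 0 counts in all tumor-free libraries. The part of these cells in the value of Csf2rb was not tested. Lrp1, an endocytic receptor, rose by 3.14 and Bend4, a gene with BEN domains, by 4.62 (adjusted p = 0.000713 and 0.000769). Among the falls, Cd209b, a lectin receptor of node and spleen macrophages, was at 12.4, 14.1, 6.86 and 11.4 CPM against 0, 0.656, 0.19 and 0.0731 CPM (log2 fold change -5.41, adjusted p = 0.00122). Nrarp, a feedback inhibitor of Notch signalling, was at 18.7, 18.1, 15 and 26.8 CPM in tumor-free and 3.69, 3.18, 4.69 and 4.02 CPM in hematogenous libraries (log2 fold change -2.33, adjusted p = 0.00224). Efnb1, the ligand ephrin B1, and Klhl30, a kelch-like protein, fell by log2 fold changes of -2.16 and -2.07 (adjusted p = 0.00017 and 5.59e-05).

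Of 10 lists of markers of other cell types, the summed level was higher in every hematogenous than in every tumor-free library for 4 (neutrophil, mast cell and basophil, erythroid and platelet, type 2 and 3 innate lymphoid) and lower for 1 (macrophage and monocyte), each at an exact permutation p of 0.0286, adjusted 0.0524 over 11 lists. In bulk RNA, fewer cells of a type and less RNA per cell cannot be told apart. The macrophage and monocyte sum holds Ccr2, and the type 2 and 3 innate lymphoid sum holds Il7r. The changes of these genes are set beside the sums below. Most of the mast cell and basophil sum was Kit and Cma1, as given above. The summed level of 15 neutrophil markers was 0 to 4.03 CPM in tumor-free and 14.7 to 183 CPM in hematogenous libraries (n = 4 each). Of its 6 tested members 4 were called higher (66.7%, against 9.52% of all tested genes). In all tumor-free libraries 7 of the 15 genes had 0 counts. Among those 7, Camp was at 0 in all 8 libraries, and Ly6g and Ltf had 5 and 2 counts over the hematogenous group. Elane, Retnlg, Lcn2 and Il1b had 931, 107, 84 and 355 counts there. Without tumor-free replicate 1, 2 or 4, or hematogenous replicate 2 or 3, 2 of the 6 were called. Mpo and Elane, granule genes of neutrophil precursors that did not pass the low-count filter and are named after their values were seen, were at 0.0945, 94.9, 28.9 and 124 and 0, 30.6, 2.47 and 20.9 CPM in hematogenous replicates 1 to 4, in that order. Csf3r, the receptor for G-CSF, was at 0, 0, 0.383 and 0 CPM in tumor-free and 3.02, 12.1, 3.36 and 11.6 CPM in hematogenous libraries (log2 fold change 5.65, adjusted p = 0.00101), and Il1b, with 0 counts in the tumor-free group, was at least 95.4-fold higher (adjusted p = 0.00252). The erythroid and platelet sum was 0 to 17 against 19.8 to 67.2 CPM. Of 6 tested erythroid and platelet genes 3 were called higher (50%, against 9.52% of all tested genes), and 5 without tumor-free replicate 4.

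Of 21 tested macrophage and monocyte markers 8 rose (38.1%, against 9.52% of all tested genes) and 2 fell (9.52%, against 6.87%). The 2 that fell were Ccr2, given below, and Apoe. Apoe went from 34.5 ± 13 to 11.3 ± 2.94 CPM, with no overlap (log2 fold change -1.62, adjusted p = 0.00118). The number that fell was 4 without tumor-free replicate 3. Lyz2 did not pass the test (adjusted p = 0.941). Clec4a3, a myeloid lectin, was at 1.04, 9.08, 2.66 and 4.89 CPM in hematogenous libraries and at 0 in the tumor-free ones, at least 67.4-fold higher. The list's summed level was 1562 to 1769 CPM in tumor-free and 1041 to 1083 CPM in hematogenous libraries (means 1623 and 1061 CPM). It holds Ccr2, which NK cells also express, at a mean of 1209 CPM in tumor-free and 590.3 CPM in hematogenous libraries. The fall of Ccr2 in CPM was thus larger than that of the whole sum. Of 20 T cell markers 5 rose (25%, against 9.52% of all tested genes) and 1 fell (5%, against 6.87%). The number that fell was 2 without tumor-free replicate 1 or hematogenous replicate 1. Cd8a was at 7.25, 23.2, 25.5 and 19.1 CPM against 60.2, 66.3, 47.9 and 43 CPM (log2 fold change 1.53, adjusted p = 0.0029). Cd3e, at 13, 29.7, 70 and 49.7 CPM against 126, 109, 85.6 and 82.8 CPM, had an adjusted p of 0.0226. The call of Cd3e was lost without tumor-free replicate 2 (0.0749), with no filter (0.102) and with the replicate number as a block (0.0502). The T cell sum was 1754 to 1991 CPM in tumor-free and 1793 to 2136 CPM in hematogenous libraries and overlapped. For type 2 and 3 innate lymphoid cells 14 markers were tested. Of these, 6 rose (42.9%, against 9.52% of all tested genes) and 2 fell (14.3%, against 6.87%). With limma voom 3 rose, and 1 fell without tumor-free replicate 2, hematogenous replicate 1 or hematogenous replicate 4. Il23r, the IL-23 receptor, had 0 counts in the tumor-free group and 2.55, 1.26, 3.11 and 4.31 CPM in the hematogenous libraries, at least 42.8-fold higher, while Il17a and Il13 had 0 counts in all 8. The list's summed level was 573 to 634 against 1085 to 2318 CPM (means 600 and 1747 CPM). It holds Il7r, at a mean of 283 CPM in tumor-free and 1329 CPM in hematogenous libraries. Most of the rise of the sum was thus that of Il7r.

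The summed level of B cell markers overlapped between the groups, and the tumor-bearing nodes held a B cell lymphoma. Of 27 tested genes 1 rose (3.7%) and 0 fell, 24 lay above 0, and the median was 0.38, against 0.08 for all tested genes. The gene that rose was Pax5, the B lineage transcription factor, at 6.66, 6.07, 15.4 and 6.91 CPM in tumor-free and 26.3, 16.8, 21.1 and 20.1 CPM in hematogenous libraries (log2 fold change 1.23, adjusted p = 0.0245). Its call was lost with limma voom (0.462), with the length trend removed (0.053) and without tumor-free replicate 1, 2 or 4 or hematogenous replicate 1 or 3 (up to 0.0648), and without tumor-free replicate 3, 2 genes rose. The groups did not overlap for Pax5 or for Cd24a, named after its values were seen (6.2, 4.44, 6.86 and 1.58 against 13.7, 9.94, 11.4 and 16.3 CPM, adjusted p = 0.105, and 0.00406 with no filter). Cd79a was at 10.3, 6.95, 18.2 and 5.04 CPM in tumor-free and 13.4, 7.37, 8.31 and 14.2 CPM in hematogenous libraries (adjusted p = 0.936). The summed level was 578 to 864 against 705 to 1000.2 CPM (exact permutation p = 0.171, adjusted 0.236, n = 4 each). Of 14 tested dendritic cell markers 2 rose (14.3%, against 9.52% of all tested genes) and 0 fell. The number that rose was 4 without tumor-free replicate 3. It was 1 without any 1 of the other tumor-free replicates or hematogenous replicates 2, 3 and 4. The dendritic cell sum was 1149 to 1322 against 1104 to 1353 CPM. Of 8 plasma cell and 6 stroma and endothelium markers, 0 and 0 were called with edgeR, 2 and 0 with DESeq2, and 3 and 0 had an unadjusted p under 0.05. The sums of both lists overlapped. The part of other cells in the results for cytokine receptors and interferon genes was not tested.

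**Figure D5:**
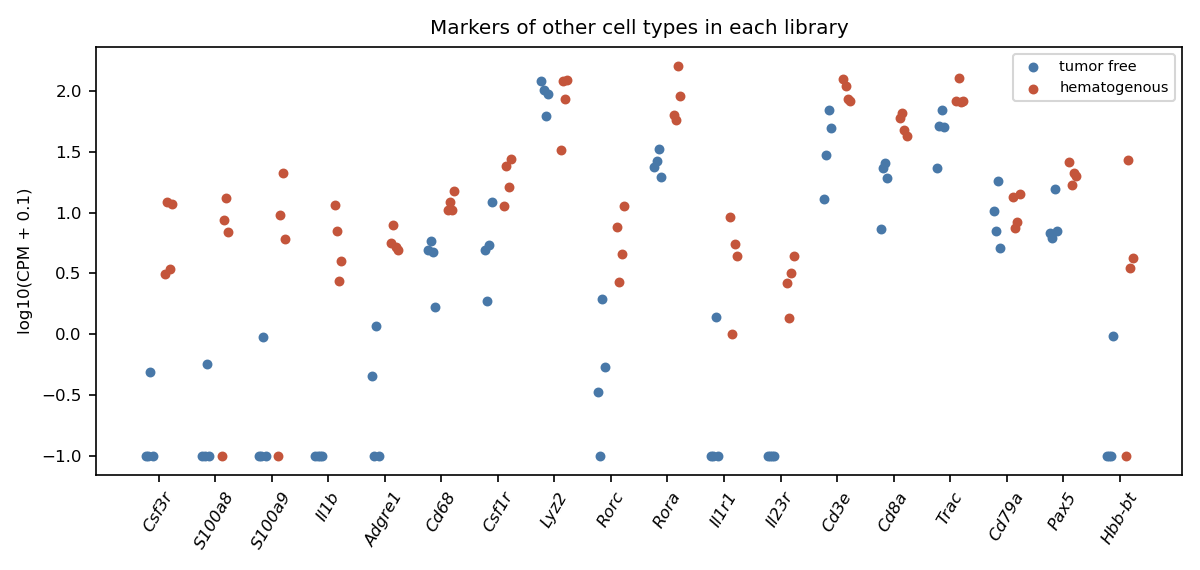
Level of 18 markers of other cell types in each library, log10(CPM + 0.1), tumor free blue and hematogenous red; points at -1 are libraries with 0 counts. Neutrophil markers (Csf3r, S100a8, S100a9, Il1b) are at 0 in most tumor-free libraries, while Lyz2 and Cd79a overlap between the groups.

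Set directly against the 4 libraries of the lymphatic model, 1417 of the 16016 genes (8.85%) were called, 469 higher (2.93%) and 948 lower (5.92%) in the hematogenous group. This comparison shares its hematogenous libraries with the one against tumor-free nodes. Il7r was among the higher ones, at 1329 ± 437 CPM against 287 ± 82.3 CPM (log2 fold change 2.21, adjusted p = 4.86e-05). Txnip and Pik3ip1 were also higher than in the lymphatic model, by 2.03 and 2.16 on the log2 scale (adjusted p = 6.28e-05 and 0.00202), and Cpt1a by 1.37 (adjusted p = 6.28e-05). Vim, Actb and Lgals1 were lower than in the lymphatic model, with log2 fold changes of -0.98, -0.96 and -1.49 (adjusted p = 4.86e-05, 0.00118 and 4.86e-05), as were Prf1 (-0.95, adjusted p = 0.00227) and Ncr1 (-0.69, adjusted p = 0.00482). Some genes that rose over the tumor-free group stood below the lymphatic model: Fos by a log2 fold change of -1.98 and Usp18 by -1.57 (adjusted p = 0.00597 and 0.00186). Mki67 and Ifng, which did not pass the test against tumor-free libraries, were lower than in the lymphatic model (log2 fold change -1.59 and -1.67, adjusted p = 0.000601 and 0.000321). Slfn5 and Tnfaip3 did not pass the test between the models (adjusted p = 0.0894 and 0.511).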

How the data were processed

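The 12 libraries were grouped by their titles, and 8 of them entered this comparison. The authors deposited raw counts of reads for each gene and library. The submitters' processing notes name FastQC (0.11.9), Trimmomatic (0.39), HISAT2 (2.1.0), HTSeq (2.0.2) and build GRCm39. The sources used here do not give the annotation release or the strand setting, so overlapping and antisense genes can share reads. The 5 summary lines of each file, which name no gene, entered neither library sizes nor tests. GENCODE M21 gave symbols for 52073 of 56748 gene IDs (91.8%, with 99.5% of the counts) and exon lengths for 97.8% of tested genes. Promoter sequences are RefSeq's.

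Calls came from the quasi-likelihood test of edgeR 4.0.16 (R 4.3.3), with TMM scaling, robust estimation, the default filter by group and all 12 libraries in a model of group, which leaves 9 residual degrees of freedom. The coefficient of biological variation was 0.429. Adjusted p are Benjamini-Hochberg values over the 16016 genes, with 0.05 as the threshold, and rose, higher, fell and lower are used of called genes. Each SE is the absolute log2 fold change over the square root of F. CPM are TMM-scaled, with SD over 4 libraries. The fit was tested on simulated data. Reads carry no molecular identifiers, so the floor of 3 counts covers counting error only, and low genes are least precise in the 3 shallow tumor-free libraries. Library measures and marker sums were compared by two-sided exact permutation tests, whose smallest p at 4 against 4 is 0.0286.

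The genes of the text were drawn from a rule: the 10 higher and 10 lower by fold change and the 10 of smallest p in each direction (at least 5 CPM on average, groups not overlapping, proper symbols), up to 4 called genes of smallest p from each of 44 lists, and a set of NK, stimulation and lineage genes. Of 1008 listed symbols 1006 matched; for 4 with more than 1 gene ID the most counted was used. Of the genes so drawn, 2 are not reported here. The comparison, the lists and the rule were chosen with earlier results of these data known. Alternatives were scaling by library size, by upper quartile or by the size factors of DESeq2, other filters, tools (DESeq2 1.42.0, limma voom 3.58.1) and thresholds, leaving out each library, the compared groups alone, B cell and plasma cell genes removed and the replicate number as a block. Equal depth and removal of the trend over gene length were chosen after seeing the data.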

Additional observations from a re-analysis of the deposited data

Results flagged for a closer look

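Dixon's test at the 95% level was run in 298 groups of 4 libraries (the CPM of most genes named in the text and 5 library measures). In each group the highest or lowest library was tested for its distance from the rest. It stood far from the other 3 in 23 groups (7.72%), and chance flags about 1 in 20 groups. Tumor-free replicate 3 was the library concerned in 11 of the 23. It had 23674960 gene counts, and it was the outlying tumor-free library for Bend4 (1.53 CPM), Csf3r (0.383 CPM), S100a8 (0.469 CPM) and S100a9 (0.852 CPM), each at 0 in the other 3. It was also the high library for Fasn (361.8 CPM), Ikzf2 (76.3 CPM), Pax5 (15.4 CPM) and Tcf7 (599.5 CPM) and the low one for Atp5o (55.9 CPM) and Psmb10 (122 CPM).

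The other tumor-free outliers were Atp5e (217 CPM) and Ifng (91.3 CPM), high in replicate 2, and Gzmb (678 CPM, high) and Tgfb3 (17.8 CPM, low) in replicate 1. In the hematogenous group, replicate 1 was high for Klhl30 (15.8 CPM), Malat1 (4268 CPM) and Ncr1 (863 CPM), replicate 3 for Klrk1 (1758 CPM) and Satb1 (675 CPM), and replicate 4 for Gbp9 (308 CPM) and Socs3 (105 CPM), and low for Etfdh (47.0 CPM).

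The hematogenous and the lymphatic model differed in a direct test of their libraries, in which 1417 genes were called with edgeR.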

How the results depend on the processing

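Of 2625 genes called, 1525 higher and 1100 lower, 1109 (614 and 495) passed an adjusted p under 0.01 and 893 (630 and 263) changed at least 2-fold. With the length trend removed 947 were called higher. Leaving out 1 library gave 1760 (hematogenous replicate 3) to 3202 (tumor-free replicate 3) calls, 1036 to 2157 higher and 724 to 1045 lower, with 67.4% higher without tumor-free replicate 3. The other settings gave 1931 (the compared groups alone) to 3793 (DESeq2) calls. Higher and lower calls were closest in number with the stricter low-count filter (1296 and 1287) and at equal depth (1307 and 1200). With the replicate number as a block 2518 genes were called (1459 higher, 1059 lower). Same-numbered libraries did not deviate together (correlations -0.0185, 0.0492, 0.0209 and -0.00945, with 1 of 4 closest to its own number). The labels name no pairing, and 4 such correlations cannot exclude one.

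The share of reads on genes differed by -6.31 points, by -6.07 over reads other than unaligned ones (exact permutation p = 0.0857) and by -7.49 to -4.10 without 1 library, with p = 0.0571 without any 1 tumor-free library or hematogenous replicate 1. Of 176 called genes that the rule or the text named, 138 had the same direction and call under every alternative that gave a value for them. Directions turned for 7 genes, all near 0 and not called. Leaving out 1 library moved the log2 fold change of Klrk1 from -0.134 to 0.0222, of Ifng from -0.283 to 0.103, of Cd27 from -0.275 to 0.0497, of Mki67 from -0.351 to 0.0181, of Cd79a from -0.140 to 0.536 and of Lyz2 from -0.241 to 0.216. With limma voom Itgam was at -0.0150, Cd79a at -0.266 and Lyz2 at 0.245. The causes were not tested.

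Low depth limits the precision of rare genes most in the 3 shallow tumor-free libraries.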
